A study of Mus musculus with 8 samples.

Results

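Stard13, Dlgap1, Pam, Plcb1 and Camk2d are 5 long protein-coding genes, each on a different chromosome and none of them on chromosome 15, that were chosen by the number of accessible chromatin regions listed in and around them. They are 5 of 21631 protein-coding genes on the numbered chromosomes and X, and 5 of the 2326 such genes that span at least 100 kb outside chromosome 15. A region was counted for a gene when it shared at least 1 bp with the gene body or the 10 kb on either side of it. The count of regions, their density and their recurrence over the lists are thus what the genes were picked on, and they are given as a description without a test.

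The regions come from ATAC-seq, which uses Tn5 transposase to cut and tag DNA left exposed by nucleosomes, in the mouse hepatoma line Hepa-1c1c7. Cells were exposed for 72 h to potassium chromate, a source of hexavalent chromium, at 0.1, 0.5 or 1 µM, and control cells received 0 µM, with 2 libraries for each of these groups. The deposited data are 3 lists of regions, 1 for each treated dose and each named together with the control, so a dose has a single value, no spread between replicates, and no test between doses. What the control contributed to a list was not given in the sources used here, and a region in a list is not shown to be more open than in control cells, and a region that is missing is not shown to be closed. Depth is unknown. In the names of the lists the 1 µM dose carries a different prefix (N503) from the other doses and the control (N502), which cannot be told apart from that dose.

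The 5 genes encode proteins of different kinds. Stard13, also called DLC2, encodes a protein with a lipid-binding START domain at its tail. Dlgap1 encodes a scaffold of the postsynaptic density, best known in neurons, that ties the PSD-95 proteins to the SHANK proteins. Pam encodes the copper-dependent monooxygenase that amidates the tail of peptide hormones. Plcb1 encodes a phospholipase C that Gq proteins switch on to release inositol trisphosphate and diacylglycerol, and Camk2d encodes the delta chain of calcium/calmodulin-dependent protein kinase II. The last pair therefore sit one after the other in calcium signalling, since inositol trisphosphate frees the calcium that activates the kinase. In long genes, accessible sites lie mostly in introns, where enhancers are found, and at start sites. The gene table used here holds no exons, so exon and intron could not be told apart.

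The label of hepatoma cells was set against hepatocyte genes in the same way. Of 16 hepatocyte markers, 6, 4 and 8 had a region in the gene or 10 kb around it at 0.1, 0.5 and 1 µM, against 31.7%, 30.2% and 36.8% of all protein-coding genes. Regions at every dose were found for 4 of them. These were Foxa2 and Nr1h4, which encode a liver transcription factor and the bile acid receptor, and the plasma protein genes Apoa2 and Fgb. No list held a region for 8 of the 16, among them Hnf4a, Ttr and Apoa1, and Alb had 1 region, at 1 µM. Of 10 neuronal markers, 4, 3 and 3 had one. The median gene length was 10.3 kb for the hepatocyte markers and 56.2 kb for the neuronal ones, against 17.3 kb over all genes. Longer genes have more room for a region, so nothing is read from the marker counts.

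At RefSeq start sites the genes differed: 3 of the 5 carried a region there in at least 1 list, and Pam and Dlgap1 did not. The start site of Stard13 that was used lies 238 kb into its gene model. RefSeq promoter windows of GRCm38.p6, which shares its coordinates with mm10, were matched for all 5 genes and reach from 250 bases before to 50 bases after a start site. A region overlapped such a window in Stard13, Plcb1 and Camk2d at 0.1 µM (3 of 5 genes, against 18.9% of 17274 protein-coding genes with a window), in Stard13 and Camk2d at 0.5 µM (2 of 5, against 17.8%) and again in Stard13, Plcb1 and Camk2d at 1 µM (3 of 5, against 22.3%). The genes were picked for many regions in these same lists, so nothing is read from these shares. The 250 bases before 1 start site of each gene are printed here to set the covered promoters beside the bare ones, in the direction of transcription, with capitals for the motifs named after them.
Camk2d, chr3:126596701-126596950, plus strand, covered at every dose: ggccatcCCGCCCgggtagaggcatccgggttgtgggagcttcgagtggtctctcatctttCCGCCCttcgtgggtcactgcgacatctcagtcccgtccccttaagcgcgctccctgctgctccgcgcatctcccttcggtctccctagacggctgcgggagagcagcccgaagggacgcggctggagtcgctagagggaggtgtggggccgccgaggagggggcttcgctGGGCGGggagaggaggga
Plcb1, chr2:134785914-134786163, plus strand, covered at 0.1 and 1 µM: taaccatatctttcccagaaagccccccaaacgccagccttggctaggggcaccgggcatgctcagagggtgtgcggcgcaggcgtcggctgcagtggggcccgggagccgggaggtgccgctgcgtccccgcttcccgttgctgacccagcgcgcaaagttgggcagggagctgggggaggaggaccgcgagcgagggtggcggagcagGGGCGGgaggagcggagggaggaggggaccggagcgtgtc
Stard13, chr5:151190194-151190443, minus strand, covered at every dose: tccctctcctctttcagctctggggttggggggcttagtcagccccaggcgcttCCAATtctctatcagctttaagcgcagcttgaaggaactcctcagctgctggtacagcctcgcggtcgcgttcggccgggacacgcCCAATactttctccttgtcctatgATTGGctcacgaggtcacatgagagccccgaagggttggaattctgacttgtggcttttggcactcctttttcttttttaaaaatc
Pam, chr1:98095647-98095896, minus strand, covered at no dose: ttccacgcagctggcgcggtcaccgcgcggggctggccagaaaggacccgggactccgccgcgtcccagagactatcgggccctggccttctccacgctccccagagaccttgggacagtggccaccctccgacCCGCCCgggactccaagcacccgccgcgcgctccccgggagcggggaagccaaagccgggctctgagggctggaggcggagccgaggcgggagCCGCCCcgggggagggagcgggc
Dlgap1, chr17:69968823-69969072, plus strand, covered at no dose: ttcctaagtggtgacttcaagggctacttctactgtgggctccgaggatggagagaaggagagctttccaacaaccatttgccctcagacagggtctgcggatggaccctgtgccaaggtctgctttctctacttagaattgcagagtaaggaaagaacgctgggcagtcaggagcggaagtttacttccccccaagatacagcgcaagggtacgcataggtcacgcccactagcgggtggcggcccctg

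Base composition did not separate the covered promoters from the bare ones in this small set. The G and C content of these 250 bases was 68.4% in Camk2d, 71.2% in Plcb1 and 53.2% in Stard13, and 75.6% in Pam and 55.2% in Dlgap1, where the median of 21020 promoter windows of protein-coding genes was 55.6%. Pam, the richest in G and C, lay at percentile 95.7 of those windows and had no region nearer than 15.6 kb to this start site in any list. A start site 14 bases further into Pam was bare as well. Dlgap1 has another RefSeq start site, 593 kb downstream of the first (chr17:70561497-70561746 for its 250 bases), also bare, with its nearest region 71.8, 140 and 71.7 kb away at 0.1, 0.5 and 1 µM.

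Both strands of the 250 bases were searched for 7 motifs, which may overlap each other. The GC box GGGCGG occurred 3 times in Camk2d, 2 times in Pam and 1 time in Plcb1, and 43.0% of the promoter windows hold it. Stard13 held 3 CCAAT boxes (CCAAT, 35.6% of windows) and no GC box, and the first start site of Dlgap1 held none of the motifs. The E box CACGTG (6.69%) occurred only before the second start site of Dlgap1, at bases -102 to -97. The TATA box TATAAA (11.7%), the AP-1 site TGANTCA (6.18%), the NRF1 site (6.92%) and the CTCF core, the motif of the insulator protein in the series title (0.533%), were found in none of the windows of these genes. A missing match says only that these letters are absent from this stretch.

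Stard13 held the most regions of any gene of at least 100 kb off chromosome 15. It spans chr5:151037515-151428200 (391 kb, minus strand), and its window held 26, 19 and 24 regions at 0.1, 0.5 and 1 µM. Its density of 6.33, 4.63 and 5.84 regions per 100 kb was 17.7, 16.4 and 14.3 times that of the rest of chromosome 5. By density averaged over the lists it ranked 10 of 2326 long genes. With only the higher-scoring 50% of each list, which drops 50% of all regions by construction, Stard13 kept 11, 9 and 8 of its regions. The 5 windows together kept 46, 34 and 51 of 86, 70 and 90.

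Pam and Camk2d came close to that density in shorter genes. Pam (chr1:97821091-98095853, 275 kb, minus strand) held 15, 13 and 16 regions in order of dose, or 5.09, 4.41 and 5.43 per 100 kb, and ranked 19 by density. Camk2d (chr3:126595487-126846326, 251 kb, plus strand) held 15, 11 and 14 regions, or 5.54, 4.06 and 5.17 per 100 kb, and ranked 21. Pam was 6.04, 6.49 and 6.08 times as dense as the rest of chromosome 1, and Camk2d 7.51, 7.76 and 6.88 times as dense as the rest of chromosome 3.

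Plcb1 and Dlgap1 reached similar counts over a much greater length, so they were rich in regions by number and far less so by density. Plcb1 (chr2:134786164-135475258, 689 kb, plus strand) held 15, 11 and 16 regions, or 2.12, 1.55 and 2.26 per 100 kb. Dlgap1 (chr17:69969073-70821413, 852 kb, plus strand) held 15, 16 and 20 regions, or 1.72, 1.83 and 2.29 per 100 kb. They ranked 157 and 161 by density, against 7 and 3 by the number of regions summed over the lists. The other 2321 long genes had median densities of 0.168, 0 and 0.261 per 100 kb and 95th percentiles of 2.44, 1.90 and 2.68 at the 3 doses, and Plcb1 and Dlgap1 lay below those percentiles at every dose while Stard13, Pam and Camk2d lay above them.

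The ranking by number shows where these genes stood among others. Summed over the lists, Stard13 had 69 regions (rank 1), Dlgap1 51 (rank 3), Pam 44 (rank 6), Plcb1 42 (rank 7) and Camk2d 40 (rank 9). Genes with as many that are not among the 5 were Arid1b (57), Rps6ka2 (49) and Pde4d (48), while Zdhhc14 had 42, the same as Plcb1. The next gene after Camk2d was Vps13d with 39.

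**Figure D1:**
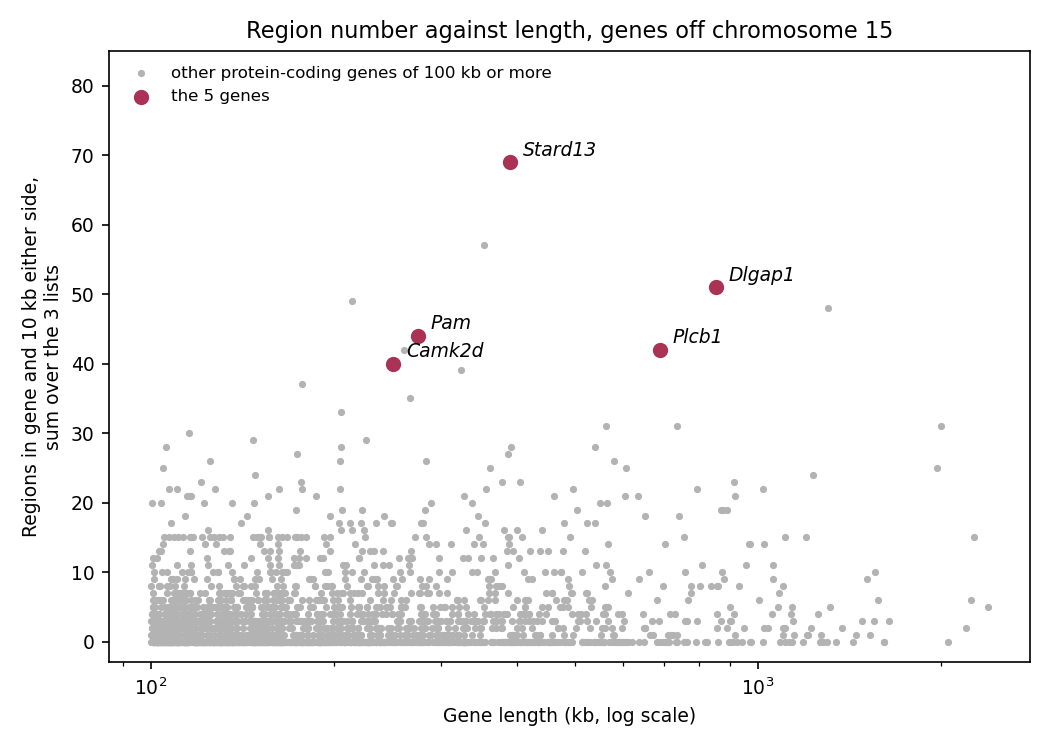
Number of regions in the gene body and 10 kb either side, summed over the 3 lists (vertical axis), against gene length in kb (horizontal axis, log scale), with 1 point for each of 2326 protein-coding genes of at least 100 kb off chromosome 15. The 5 genes, in red, lie between 40 and 69 regions, and Dlgap1 and Plcb1 are the longest of them.

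The shortest list, that of 0.5 µM, also gave the fewest regions in 4 of the 5 genes. Stard13, Pam, Plcb1 and Camk2d each had their fewest regions at 0.5 µM, and Dlgap1 had its fewest at 0.1 µM. The 5 windows together held 86, 70 and 90 regions in order of dose, out of lists of 14401, 11130 and 15894. That is 0.597%, 0.629% and 0.566% of each list, so the lower count at 0.5 µM did not come with a smaller share of that list. With 1 list per dose such differences have no replicate error.

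The 5 windows cover 2558 kb and were 6.96, 8.13 and 6.62 times as dense in regions as all other long genes off chromosome 15 pooled. This restates the choice of the genes. The 101 genes of at least 100 kb on chromosome 15, which the choice of genes left out, had pooled densities of 2.08, 1.86 and 2.41 per 100 kb, so Plcb1 was close to that level (2.12, 1.55 and 2.26) and Stard13 well above it. Genes with a like density over the 3 doses, by Euclidean distance in regions per 100 kb, were Erich3 and Mbp for Stard13 (distances 0.747 and 1.25), Wdr95 and Erich3 for Pam (0.480 and 0.731), and Ptpn14 and Erich3 for Camk2d (0.564 and 0.914). For Plcb1 the nearest was Fam110b (0.202), for Dlgap1 they were Nhej1 and Serinc5 (0.158 and 0.269), and the densest other long genes were Kat2b (7.41 per 100 kb on average), Nrp2 (7.39), Rps6ka2 (6.97), Zfp608 (6.69) and Nfasc (6.26). The matches of Dlgap1 rest on few regions: Nhej1 (158 kb) had 3, 3 and 4 in order of dose and Serinc5 (101 kb) 2, 2 and 3.

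Along the genes the regions were arranged in different ways, from a wide scatter to a single dense end. Positions are given from the outer 5′ end of the gene model, after regions that overlap between lists were merged into 1. The 5 windows held 106 merged regions: 29 in Stard13, 21 in Dlgap1, 20 in Plcb1 and 18 each in Pam and Camk2d. All lay within the gene bodies except 1 beyond the 3′ end of Stard13.

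**Figure D2:**
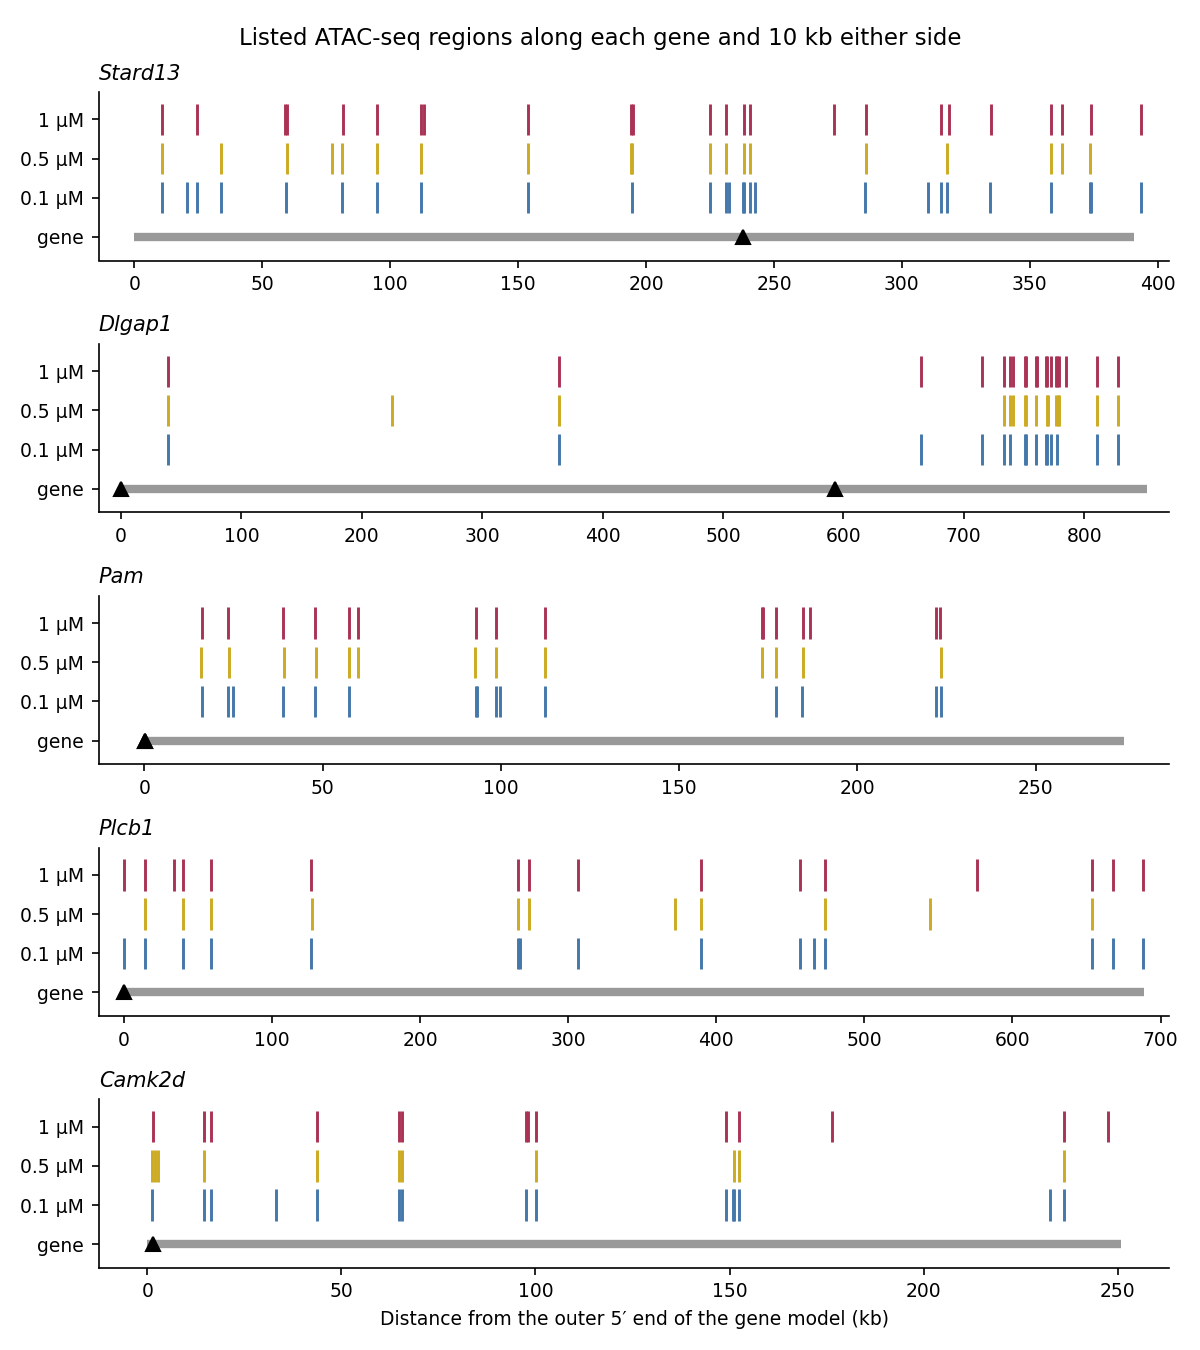
Midpoints of listed regions (vertical ticks, 1 row for each dose) along each gene and the 10 kb either side, as distance in kb from the outer 5′ end of the gene model. Black triangles mark RefSeq start sites, and the regions of Dlgap1 crowd between 715 and 815 kb while those of Plcb1 lie on both sides of an empty stretch from 127 to 266 kb.

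Dlgap1 had most of its regions near its 3′ end. Of its 21 merged regions, 16 lay in the 100 kb that start 715 kb from the 5′ end, and none lay in the 301 kb between 364 and 665 kb. That dense stretch held 11, 12 and 16 of the regions at 0.1, 0.5 and 1 µM, which is 73.3%, 75.0% and 80.0% of them. Outside it, Dlgap1 had 4 regions at each dose, or 0.518 per 100 kb, beside pooled densities of 0.483, 0.337 and 0.531 per 100 kb in the other long genes. The stretch was chosen as the densest 100 kb of these same regions, so the rest of the gene is less dense by construction. The other long genes keep their own dense stretches, so these densities are not a like comparison. The dense stretch lies downstream of both start sites in the table, and a lncRNA gene, Gm36746, overlaps 4 of the merged regions in it. Another lncRNA gene, Gm41609, overlaps 2 merged regions further towards the 3′ end of Dlgap1.

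Pam and Camk2d had their densest 100 kb towards the 5′ end. In Pam, 12 of 18 merged regions lay between 12.4 and 112 kb, and in Camk2d 11 of 18 lay between 1.33 and 101 kb. When each gene was divided into 3 equal parts, Pam held 7, 7 and 4 merged regions from 5′ to 3′ and Camk2d 8, 6 and 4. The first and middle parts of Pam thus held the same number. Of the regions listed at all 3 doses, 5, 4 and 2 lay in the first, middle and last part of Pam, and 5, 2 and 1 in those of Camk2d. The dense stretch of Pam held 11, 9 and 9 regions at the 3 doses and that of Camk2d 9, 8 and 9. Pam had its longest empty stretch from 112 to 173 kb and Camk2d from 176 to 233 kb, after which Camk2d has its highest-scoring region.

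Stard13 and Plcb1 had regions in every part of the gene, although Plcb1 had none over the 139 kb from 127 to 266 kb. The longest empty stretch of Stard13 ran from 154 to 195 kb. When the gene was divided into 3 equal parts, Stard13 held 10, 8 and 10 merged regions from 5′ to 3′ and Plcb1 6, 7 and 7, against 2, 1 and 18 in Dlgap1. The median distance between neighbouring merged regions was 10.4 kb in Stard13 and 19.9 kb in Plcb1, with 10.7 kb in Camk2d, 7.45 kb in Pam and 6.88 kb in Dlgap1. The only RefSeq start site of Stard13 in the table lies 238 kb into the gene model, and the 100 kb richest in regions, with 12 merged regions, starts 218 kb from the 5′ end and holds that start site.

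Beyond the windows, where the choice of genes did not reach, density fell in some genes and not in others. Stard13 had 1 region per list in the 100 kb on each side together, or 0.500 per 100 kb at each dose, so that its density dropped from 4.63 to 6.33 per 100 kb inside to 0.500 outside. Its nearest protein-coding neighbours, Kl (the hormone co-receptor klotho) and the pheromone receptor gene Vmn2r18, had 1 region and no region per list. Camk2d had 3.0, 1.5 and 3.0 per 100 kb outside and Pam 3.5, 3.0 and 3.0, which are lower than inside each gene. Next to Pam lie Gin1, with 2 regions in its window in every list, and Slco6d1, a transporter gene with 1 region at 0.1 µM alone. Camk2d lies between Arsj, an arylsulfatase gene with 3 regions in every list, and Ank2, the ankyrin-B gene, whose 579 kb held 9, 8 and 9 regions (1.45 per 100 kb on average).

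Plcb1 and Dlgap1 stood out less from what surrounds them. The 100 kb on either side of Plcb1 held 1.5, 1.0 and 2.0 regions per 100 kb, beside 2.12, 1.55 and 2.26 inside, and all of them lay on the 3′ side. Dlgap1 had 2.5, 1.5 and 3.0 per 100 kb beyond its window, above its own density at 0.1 and 1 µM. All of those lay on the 3′ side too (5, 3 and 6 regions), next to its dense end. Tgif1, which encodes a homeobox repressor and is the next protein-coding gene there, had 4, 3 and 5 regions in its own window of 29.3 kb. The 100 kb on the 5′ side held no region at any dose in Stard13, Dlgap1 and Plcb1.

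**Figure D3:**
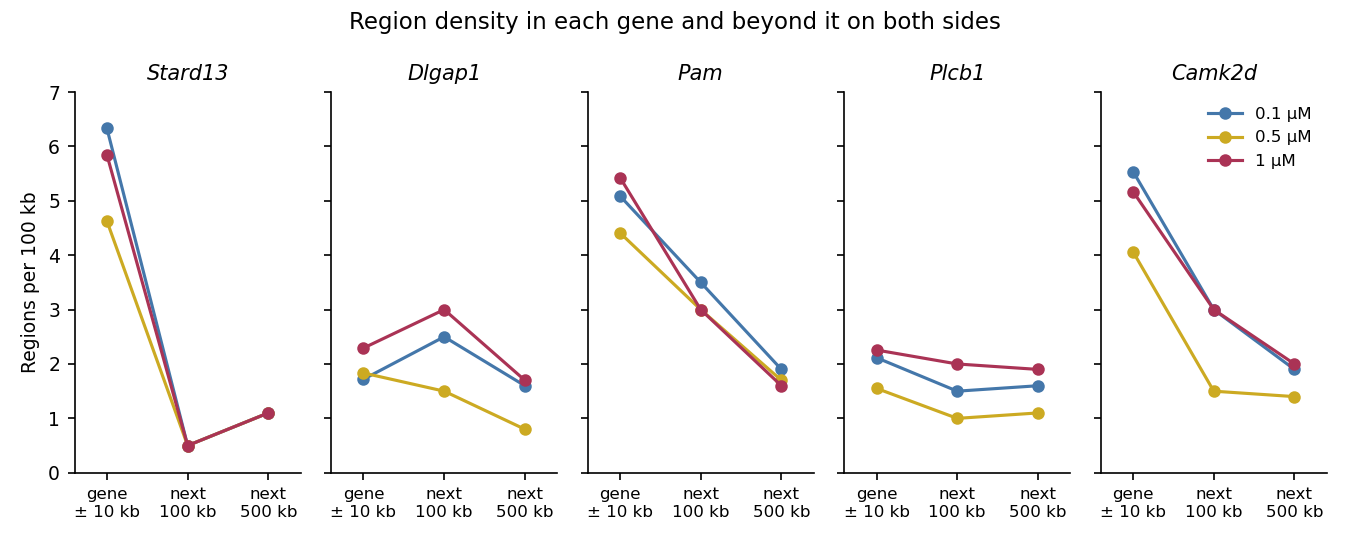
Regions per 100 kb (vertical axis) in each gene with 10 kb either side, in the next 100 kb on both sides and in the next 500 kb on both sides, which include those 100 kb, with 1 line for each dose. Stard13 falls from between 4.63 and 6.33 to 0.500, while Dlgap1 and Plcb1 stay between 0.8 and 3.0 throughout.

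Many of the same places were listed at every dose. In all, 52 of 106 merged regions were listed at all 3 doses, or 49.1% (exact binomial 95% interval 39.2 to 59.0, counting error only), beside 34.5% of all 21051 merged regions and 33.7% of 4211 in the other long genes off chromosome 15. The share was 61.1% in Pam (11 of 18), 52.4% in Dlgap1 (11 of 21), 48.3% in Stard13 (14 of 29), 44.4% in Camk2d (8 of 18) and 40% in Plcb1 (8 of 20). The intervals of single genes were wide, from 19.1 to 63.9 in Plcb1 and from 35.7 to 82.7 in Pam, and they overlapped. All lists share the control libraries, and genes picked for many regions in 3 lists favour regions that recur, so nothing is read from the difference. With only the higher-scoring 50% of each list the share was 35.9%, beside 33.0% of all merged regions, and with a reciprocal overlap of 50% it was 36.8%, beside 25.4%.

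Regions listed at 2 doses were mostly those of 0.1 and 1 µM, in these genes as over all regions. Of 27 such merged regions, 17 were listed at 0.1 and 1 µM, 7 at 0.5 and 1 µM and 3 at 0.1 and 0.5 µM, while 11, 5 and 11 were listed only at 0.1, 0.5 and 1 µM. Over all 21051 merged regions the counts at 0.1 and 1 µM, 0.5 and 1 µM, and 0.1 and 0.5 µM were 3141, 1174 and 453. In Dlgap1 every 0.1 µM region (15 of 15) touched a 1 µM region, and in Pam every 0.5 µM region did (13 of 13), where the whole lists gave 74.8% and 79.4%. In Stard13, 17 of the 19 regions of 0.5 µM touched a 0.1 µM region and 16 touched a 1 µM region, and in Camk2d 10 and 9 of 11 did, beside 72.4% and 79.4% of the whole 0.5 µM list. Plcb1 shared least with 0.5 µM: 8 of its 15 regions at 0.1 µM and 9 of its 16 at 1 µM touched a 0.5 µM region, or 53.3% and 56.2%, close to the 54.9% and 53.9% of the whole lists.

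**Figure D4:**
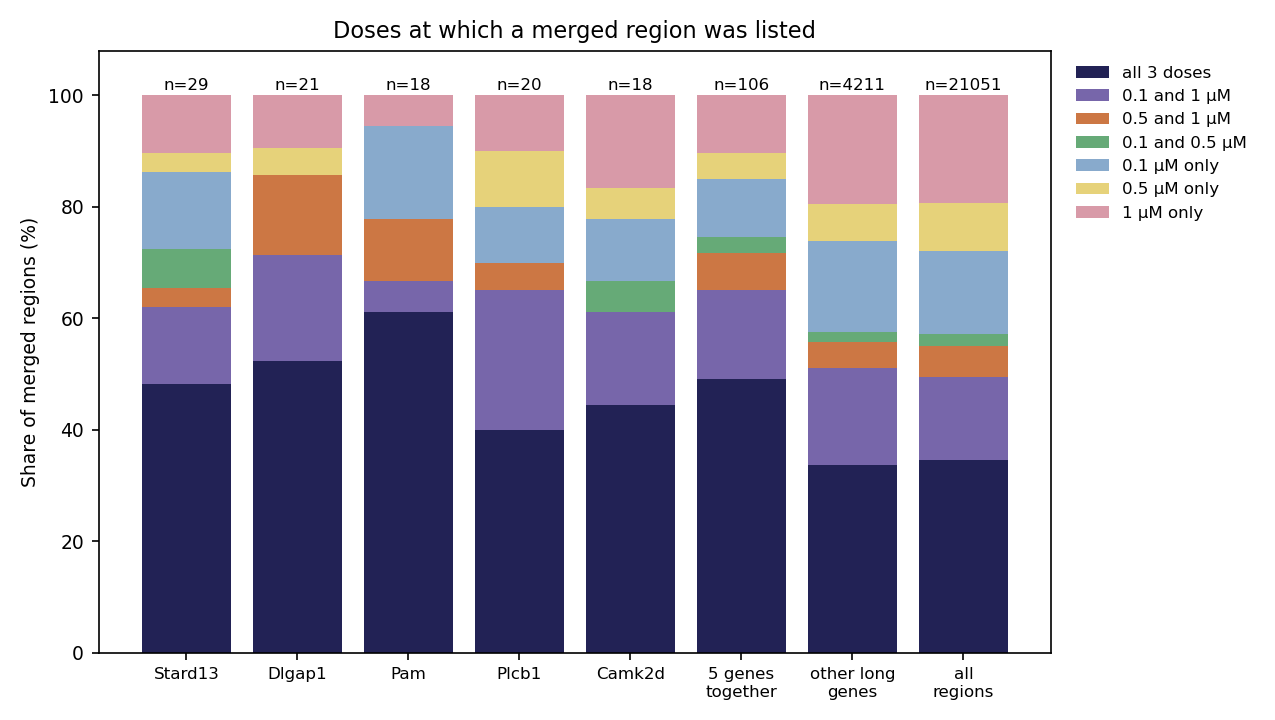
Share of merged regions in percent (vertical axis) by the doses at which they were listed, for each gene, the 5 genes together, the other long genes off chromosome 15 and all merged regions, with the number of merged regions above each bar. The part listed at all 3 doses runs from 40% in Plcb1 to 61.1% in Pam, beside 34.5% of all regions.

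Regions listed at more doses were wider, in these genes as in the lists as a whole. The median width of merged regions in the 5 windows was 246 bp when listed at 1 dose, 382 bp at 2 and 544 bp at 3, beside 245, 378 and 595 bp over all merged regions. A merged region of several lists is the union of them and is wider by construction. In the single lists the median width of the 86, 70 and 90 regions was 364, 338 and 387 bp, beside 339, 324 and 353 bp in the whole lists.

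Strength was judged by the percentile of the authors' score within a list, since the scale of the score is not given. Pam held the highest-ranking regions as a group, with median percentiles of 86.2, 70.4 and 70.0 at 0.1, 0.5 and 1 µM and 5, 5 and 4 regions in the top 10% of their list. Stard13, the gene with the most regions, had medians of 34.4, 49.3 and 41.2 and 3, 2 and 1 regions in the top 10%. For Dlgap1 the medians were 59.6, 42.7 and 61.5, for Plcb1 38.2, 42.9 and 53.9, and for Camk2d 59.6, 36.0 and 63.9. With only the higher-scoring 50% of each list, Pam kept 11, 10 and 11 regions of 15, 13 and 16. Over the 5 genes, 15.1%, 15.7% and 10% of regions were in the top 10%.

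**Figure D5:**
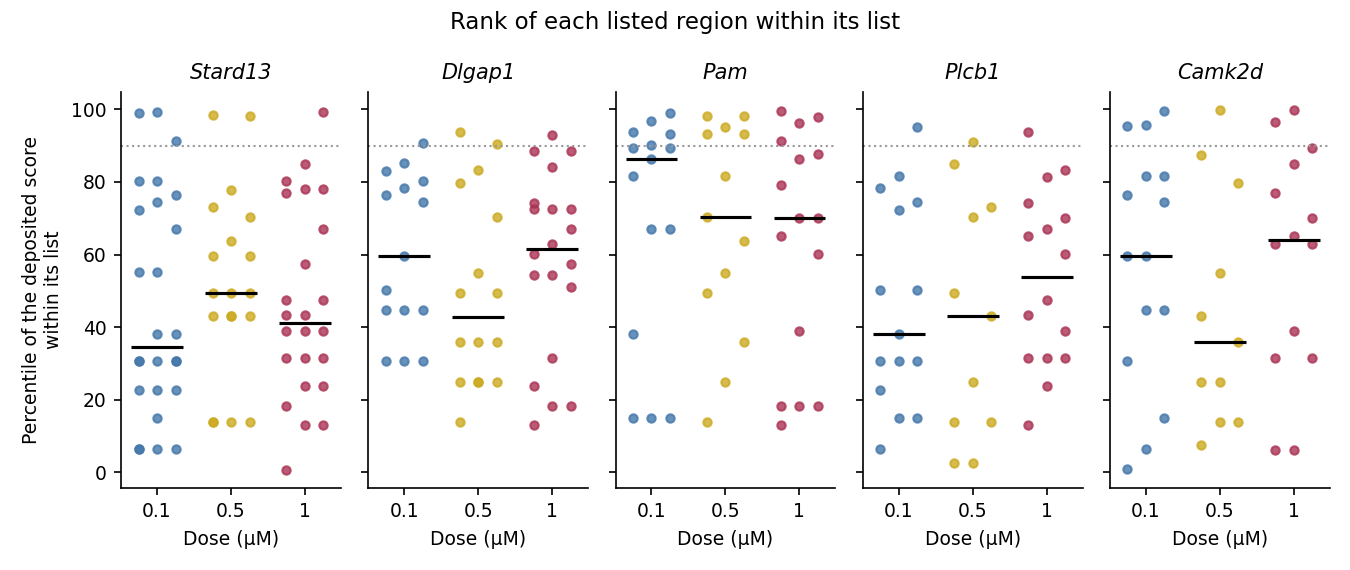
Percentile of the deposited score within its list (vertical axis) for every listed region of each gene, by dose in µM, where 1 point is 1 region, the black bar is the median and the dotted line is the percentile of 90. The points of Pam gather high, with medians of 86.2, 70.4 and 70.0, where the whole lists have 50.3, 49.3 and 51.1. Those of Stard13 have medians of 34.4, 49.3 and 41.2, below the whole list at 0.1 and 1 µM and level with it at 0.5 µM.

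The region with the best mean rank was inside the gene, far from a start site in the table, in each of the 5. In Camk2d it lay at chr3:126831305-126832048, 236 kb from the 5′ end and so near the 3′ end, with scores of 144, 135 and 202 (mean percentile 99.7). In Stard13 it lay at chr5:151315547-151316653, 112 kb from the 5′ end, with scores of 121, 62 and 154 (mean percentile 99.0). In Pam it lay at chr1:97910644-97911802, 185 kb from the 5′ end and at an end of the lncRNA gene Gm31771, with scores of 98, 59 and 164 (mean percentile 98.8). In Plcb1 it lay at chr2:135051748-135052556, 266 kb from the 5′ end, with scores of 52, 29 and 55 (mean percentile 93.3), and in Dlgap1 at chr17:70719864-70720447, 751 kb from the 5′ end, with scores of 38, 35 and 51 (mean percentile 92.4). All were listed at every dose, and each had its lowest score at 0.5 µM, a list whose highest score (240) is also below those of the others (520 and 485).

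Pam held further high-ranking regions, 2 of which were picked out after their values were seen. The one at chr1:98038160-98038714, 57.4 kb from the 5′ end, scored 63, 40 and 100 (mean percentile 96.6). The one at chr1:98047576-98048263, 47.9 kb from the 5′ end, scored 45, 59 and 73 (mean percentile 95.9) and lies at an end of B230216N24Rik. Both lie inside the dense stretch of the gene, whereas its best-ranked region lies outside it.

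At the start sites the regions ranked from high to low. The region over the Camk2d start site, at chr3:126595995-126597637, scored 53 at 0.1 µM and 75 at 1 µM, and at 0.5 µM it was listed as 2 pieces with scores of 24 and 6. The region over the Plcb1 start site, at chr2:134785966-134786767, scored 19 and 30 at 0.1 and 1 µM, and at 0.5 µM the nearest region lay 14.1 kb away. The region over the Stard13 start site, at chr5:151189503-151190498, scored 10 at 0.5 and 1 µM and was listed as 2 pieces with scores of 7 and 8 at 0.1 µM. Its mean percentile of 39.7 lay well below that of the best region of the gene.

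Of 106 merged regions, 3 lay within 1 kb of a start site of these genes and 4 within 1 kb of an end of another gene, all of them lncRNA genes. In Stard13 these lncRNA genes were 1700028E10Rik and Gm36579, and in Pam Gm31771 and B230216N24Rik. The region at the end of 1700028E10Rik, at chr5:151368030-151369567, was picked out after its values were seen: it scored 102 and 66 at 0.1 and 0.5 µM and was listed as 2 pieces of scores 11 and 8 at 1 µM. The highest-scoring regions listed at 1 dose only ranked below the best region of their gene. They stood at percentile 55.2 of their list in Stard13 (chr5:151117966-151118183, 0.1 µM), 31.6 in Dlgap1 (chr17:70729462-70729674, 1 µM), 39.1 in Pam (chr1:97908971-97909216, 1 µM), 60.3 in Plcb1 (chr2:135361926-135362177, 1 µM) and 62.8 in Camk2d (chr3:126771629-126771906, 1 µM).

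Relatives and partners of the genes were counted from lists, as genes with at least 1 region in the body or 10 kb around it, beside the 31.7%, 30.2% and 36.8% of all protein-coding genes at 0.1, 0.5 and 1 µM. Long genes have more room for a region, and the median length of the lists given here ran from 42.6 to 109 kb against 17.3 kb over all genes, so these counts are not read as an excess.

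Dlc1, the closest relative of Stard13 and also long (385 kb), had 4, 3 and 6 regions (1.07 per 100 kb), and Stard8, the other member of the family, had none.

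For Plcb1, 13, 11 and 14 of 22 genes of phospholipase C and Gq signalling had a region, 8 of them at every dose. Gna11, which encodes a Gq-class alpha subunit and spans only 16.4 kb, had 1, 2 and 2 regions, or 4.57 per 100 kb. Itpr1, an inositol trisphosphate receptor gene, had 1.86 per 100 kb, Plcg1 1.55, the protein kinase C gene Prkce 0.980 and Plch1 0.896. Plcb4, the nearest protein-coding gene downstream of Plcb1, had 6, 6 and 10 regions over 356 kb (1.95 per 100 kb, beside 1.97 in Plcb1), while Plcb2 and Plcb3 had none.

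For Camk2d, 8, 6 and 9 of 20 genes of calcium and calmodulin signalling had a region, 6 of them at every dose. They were Camkk1 (5.07 per 100 kb), an upstream kinase, Camk1 (3.36), the calcineurin subunit genes Ppp3r1 (3.27) and Ppp3ca (1.39), the calcium channel gene Cacna1c (0.370) and Hdac4 (0.349), a deacetylase that these kinases phosphorylate. Of the other chains of the same kinase, Camk2b and Camk2g had no region and Camk2a had 1, at 1 µM. The densities of the short genes rest on few regions: Camkk1 (26.0 kb) had 2, 1 and 4, and Camk1 (9.80 kb) had 1 in every list.

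For Pam, 5, 3 and 4 of 17 genes of peptide processing and copper supply had a region. Those with regions at every dose were Cpe (5.53 per 100 kb), which encodes carboxypeptidase E, Scg2 (5.20), a granin gene, and Slc31a1 (1.95), the copper importer gene. Cpe had 9, 3 and 8 regions, the short Scg2 had 1, 2 and 1, and Slc31a1 had 1 in every list. The prohormone convertase genes Pcsk1 and Pcsk2, whose products act before Pam, had none. For Dlgap1, 8, 9 and 7 of 19 postsynaptic scaffold and receptor genes had a region, 6 of them at every dose: Shank1 (1.4 per 100 kb), Homer1 (0.824), the glutamate receptor gene Grin2b (0.694), Dlg2 (0.418), Nlgn1 (0.143) and Dlgap2 (0.129). Dlgap2, at 758 kb the relative nearest to Dlgap1 in length, had 1 region per list, beside 15, 16 and 20 in Dlgap1.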

How the data were processed

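ATAC-seq region lists of Hepa-1c1c7 cells were used as deposited, 1 list for each treated dose, each attached by the labels to both libraries of that dose. The submitters' processing notes name Bowtie2, Picard, MACS2 and mm10 but no version or role. Not stated in the sources used here were thresholds, pooling of libraries, the Tn5 read shift and the use of the control. The names of the lists carry a q tag, a filter tag and the word unique, and their meaning was not explained there. The deposited score of a region is a whole number of at least 4 on an unstated scale, so regions were ranked by its percentile within a list. The exception is the highest-scoring region listed at 1 dose, which was picked by the score itself. Scores are printed as deposited. Coordinates are 1-based mm10.

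Genes and promoter sequences came from RefSeq tables of GRCm38.p6, which corresponds to mm10. Regions were assigned to a gene by an overlap of at least 1 bp with its body or 10 kb either side, and lists were merged at an overlap of 1 bp. Own scripts in Python 3.11.15 (pandas 2.3.3, scipy 1.17.1) did the counting and were tested on simulated data. Exact intervals are Clopper-Pearson. No p-value was computed, since no list has a replicate. The 2 libraries of a dose are not labelled as separate cultures.

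The named genes were the 5 genes, the 2 long genes of most like density to each, the 5 densest other long genes and up to 6 densest members of each of the 5 pathway lists with a region at every dose. The result of 1 of these pathway lists, that of Stard13, and 1 long gene of like density are not reported here. Relatives outside this rule, neighbours and genes ranked near the 5 by number were chosen after their values were seen. The named regions of each gene were the best-ranked one listed at every dose, those at start sites and the highest-scoring one listed at 1 dose. The members and lists were chosen with earlier results of these data known. No region of the untreated cells was analysed here.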

Additional observations from a re-analysis of the deposited data

How the results depend on the processing

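Counts depended on how much of each list was used, and less on the window. With only the higher-scoring 50% of each list the 5 windows held 46, 34 and 51 regions at 0.1, 0.5 and 1 µM, and with the wider 50% they held 48, 38 and 53. These settings keep fewer regions by construction. Density relative to other long genes moved to 8.87, 11.2 and 8.79 times with comparison genes of at least 200 kb. It moved to 8.72 times at 0.1 µM without Dlgap1. In 26 of 30 such alternatives, which repeat the same settings at each dose, the ratio stayed within its counting interval. The ratio restates the choice of the genes, so nothing is read from its stability. The share of merged regions listed at all doses moved to 36.8% with a reciprocal overlap of 50%, beside 25.4% of all merged regions. This stricter overlap can only lower the share. With the higher-scoring 50% of the lists it moved to 35.9%, beside 33.0% of all merged regions, and the cause of that move was not tested. Over the 5 pathway lists together, which include the one not reported here, 46, 39 and 47 genes had a region at the 3 doses, and 29, 25 and 31 with the higher-scoring 50%. Single genes moved in 11 of 30 alternatives, all with the higher-scoring 50%. The 100 kb beyond the windows held 2.2, 1.5 and 2.3 regions per 100 kb, and taking 500 kb in their place stayed within the counting interval in 3 of 3 cases. No library could be left out, since a list joins both libraries of its dose. No paired analysis was possible because the lists carry no replicate.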
